A study of Rattus norvegicus with 28 samples.

Results

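The nuclear genes for subunits of the mitochondrial respiratory chain and of ATP synthase were followed in the kidneys of female rats of 2 strains, SBN/y and SBH/y. The set was chosen by name: all genes whose platform symbol is Cyc1 or belongs to the families Ndufa, Ndufb, Ndufc, Ndufs and Ndufv, Sdh, Uqcr, Cox4 to Cox8 or Atp5. It held 79 of the 14217 genes on the array that a probe set names alone. Each gene was read by the probe set whose mean over the 28 arrays was highest. By complex, 33 members belonged to complex I, 4 to complex II, 8 to complex III, 18 to complex IV and 16 to ATP synthase. Ndufa4, whose product sits in complex IV despite its name, was counted there.

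The 4 groups had 7 arrays each. SBN/y with both kidneys and SBH/y with both kidneys had a sham operation, and SBN/y and SBH/y with 1 kidney had the other removed (uninephrectomy). Kidneys were taken at 5 months of age, 4 months after the operation, from rats fed standard chow. Both are Sabra rats, of which SBH/y is the line prone to hypertension on salt loading and SBN/y the resistant one. The labels name no transgene or drug, and they number the samples without stating whether animals were shared. The p-values therefore reflect only how much these samples vary, which may be technical. The deposited values are log2 signals, with array medians between 5.72 and 5.77, and 68 of the 79 members had a mean above 10. Pairs of arrays correlated at 0.985 to 0.997. No measure of background was at hand, and 6 members (Cox4i2, Cox6a2, Cox6b2, Cox7a1, Cox7b2 and the pseudogene Cox6c-ps1) had a mean below every array's median.

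The respiratory chain passes electrons from NADH, at complex I, and from succinate, at complex II, through coenzyme Q to complex III, then through cytochrome c to oxygen at complex IV. Complexes I, III and IV pump protons across the inner mitochondrial membrane, and ATP synthase uses the returning protons to make ATP. Kidney tubules are rich in mitochondria because salt and solute reabsorption consumes much ATP, above all in the proximal tubule, the thick ascending limb and the distal convoluted tubule.

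The members were lower in SBH/y than in SBN/y, by a small amount and in both surgical states. With both kidneys present, 41 of 79 members (51.9%) were lower in SBH/y and 2 were higher at an adjusted p under 0.05 (limma, Benjamini-Hochberg over 31042 probe sets). Over all probe sets, 8.31% were lower and 9.64% higher. After uninephrectomy, 44 of 79 (55.7%) were lower and 1 was higher, against 10.3% lower and 11.1% higher over all probe sets. Since most members are bright, the same shares were taken over the 1281 probe sets with a mean above 10, of which 15.1% were lower with both kidneys and 19.6% after uninephrectomy. The median log2 difference of the members, SBH/y minus SBN/y, was -0.11 with both kidneys (-7.37% on the linear scale) and -0.12 after uninephrectomy (-7.78%). Over all probe sets those medians were -0.02 and -0.01, and over the bright ones 0.01 in both states. Of the 79 members, 73 had a difference below 0 with both kidneys and 72 after uninephrectomy. Groups of 7 arrays against 7 did not overlap, with SBH/y lower, for 22 members (27.8%) with both kidneys and for 17 (21.5%) after uninephrectomy. Over all probe sets those shares were 3.17% and 4.21%. Of the 1281 bright probe sets, 98 and 124 were separated in this way.

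Both strain comparisons mostly called the same members. They share no array but share 1 estimate of the spread per probe set, so their calls are not independent. With only the compared groups in each fit, 30 members were lower with both kidneys and 40 after uninephrectomy. Of the 41 members lower with both kidneys, 34 (82.9%) were also lower after uninephrectomy, and these were 77.3% of the 44 called there. Another 7 were called lower only with both kidneys and 10 only after uninephrectomy, with no call of an interaction for any of them. The median standard error of the interaction over the 79 members was 0.05 log2. A missing interaction call therefore does not show equal differences in both states. No call in either state was made for 26 members. Across the 79 members, which share arrays and are not independent replicates, the differences in both states had a Pearson r of 0.72, and 0.85 without Cox8b. Neither the overlap of calls nor these correlations were taken over all probe sets, so neither is shown to be particular to these members.

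**Figure D1:**
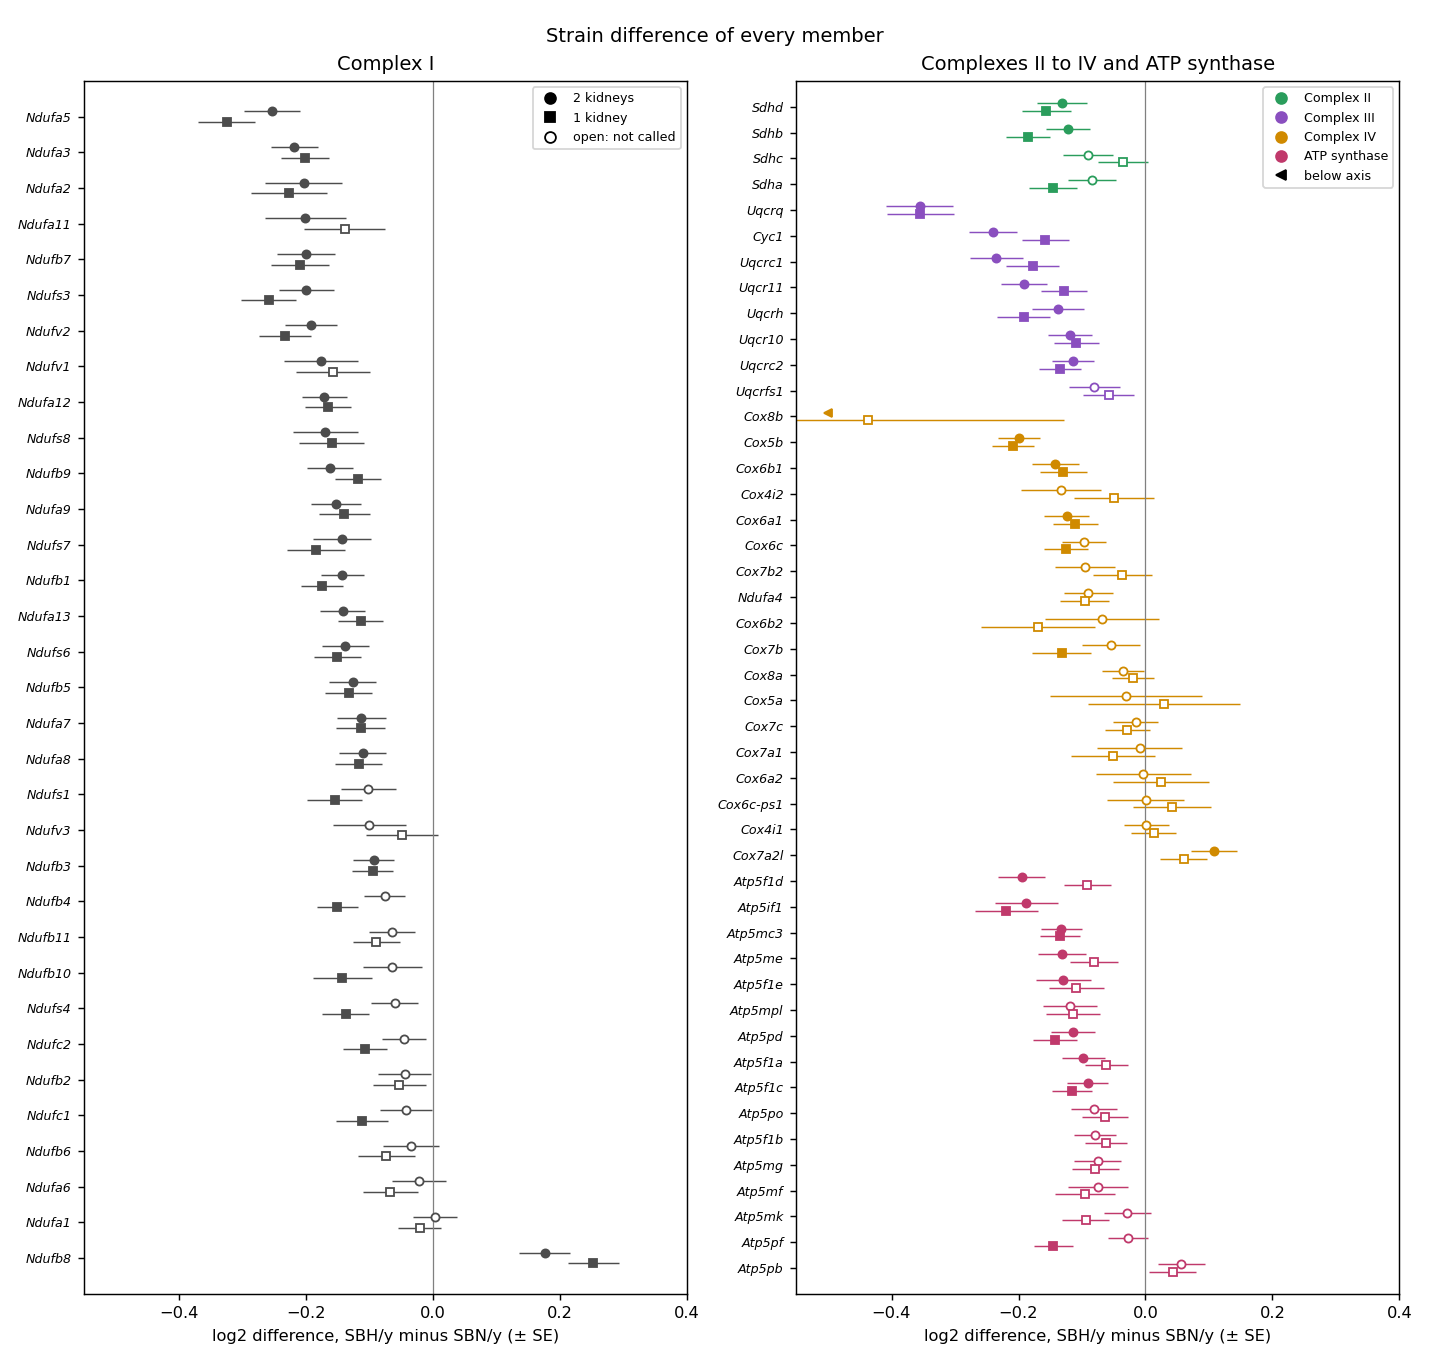
Log2 difference, SBH/y minus SBN/y, of every member (points, with bars of 1 standard error), with both kidneys (circles) and after uninephrectomy (squares). Filled symbols passed the test, the arrow marks Cox8b with both kidneys at -1.42, beyond the axis, and most symbols of all 5 complexes lie left of 0.

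As a guide to the sequences behind these genes, the promoter windows (250 bases before to 50 after the start, RefSeq, GRCr8) of 3 members are shown. They are Uqcrq, with the largest strain difference of complex III, Cox5b, with the largest of the general complex IV subunits in both states, and Ndufb8, the member higher in SBH/y in both states. Capitals mark matches to 3 short motifs on either strand: GCGCATG, from the site of NRF1, CCGGAAG, from that of ETS factors such as GABP (NRF2), and AAGATGGC, from that of YY1, all factors known to act on nuclear genes of the respiratory chain. The windows lie at chr10:38089929-38090228 (minus strand) for Uqcrq, chr9:46417587-46417886 (plus strand) for Cox5b and chr1:253362887-253363186 (minus strand) for Ndufb8.
Uqcrq: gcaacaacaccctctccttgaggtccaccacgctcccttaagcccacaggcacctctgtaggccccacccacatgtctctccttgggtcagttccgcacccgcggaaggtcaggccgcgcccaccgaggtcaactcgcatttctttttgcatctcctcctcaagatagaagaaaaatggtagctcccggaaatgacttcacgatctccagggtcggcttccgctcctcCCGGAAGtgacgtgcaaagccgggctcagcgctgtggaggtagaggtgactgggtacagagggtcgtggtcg
Cox5b: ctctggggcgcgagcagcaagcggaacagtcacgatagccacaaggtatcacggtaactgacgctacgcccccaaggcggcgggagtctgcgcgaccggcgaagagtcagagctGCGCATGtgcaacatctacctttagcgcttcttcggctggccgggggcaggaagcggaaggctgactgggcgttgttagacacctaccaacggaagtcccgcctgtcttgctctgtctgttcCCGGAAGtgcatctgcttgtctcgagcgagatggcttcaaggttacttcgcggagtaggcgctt
Ndufb8: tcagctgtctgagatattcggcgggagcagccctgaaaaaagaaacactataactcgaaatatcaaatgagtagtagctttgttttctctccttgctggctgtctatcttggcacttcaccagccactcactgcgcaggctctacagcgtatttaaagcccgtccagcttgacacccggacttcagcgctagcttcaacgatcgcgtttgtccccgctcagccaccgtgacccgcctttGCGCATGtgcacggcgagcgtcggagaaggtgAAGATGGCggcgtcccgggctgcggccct

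Uqcrq held the ETS letters, Cox5b the NRF1 and ETS letters, and Ndufb8 the NRF1 and YY1 letters. Among the 70 members with a promoter in the RefSeq table, 10 (14.3%) held the NRF1 letters, against 3.77% of 33469 promoters. The ETS letters stood in 20 member promoters (28.6%, against 8.75%) and the YY1 letters in 15 (21.4%, against 3.17%), and 32 (45.7%) held at least 1 of the 3, against 14.3%. Set beside the 24 members called in neither state, the 28 lower in both held the NRF1 letters in 3 against 4, the ETS letters in 10 against 6, and the YY1 letters in 6 against 5. Such matches are letters in a window, not bound sites.

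Complex III, which takes electrons from coenzyme Q to cytochrome c, had the highest share of lower members. In each state 7 of 8 were lower, all but the Rieske iron-sulfur protein Uqcrfs1 (-0.08 ± 0.04, SE, with both kidneys and -0.06 ± 0.04 after uninephrectomy, not called). The median difference was -0.16 with both kidneys and -0.15 after uninephrectomy.

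Uqcrq, a small subunit of complex III, had with both kidneys a lowest, median and highest log2 value of 11.42, 11.56 and 11.86 in SBN/y and of 11.13, 11.27 and 11.32 in SBH/y. After uninephrectomy the values were 11.50, 11.61 and 11.71 in SBN/y and 11.08, 11.28 and 11.31 in SBH/y. All 14 SBH/y arrays therefore lay below all 14 SBN/y arrays. The difference was -0.36 ± 0.05 with both kidneys (limma adjusted p = 5.01e-06), or -21.9%, and -0.35 ± 0.05 after uninephrectomy (adjusted p = 4.06e-06), or -21.8%.

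Cyc1 encodes cytochrome c1, the heme subunit that hands electrons to cytochrome c. Its values with both kidneys were 11.44, 11.58 and 11.64 in SBN/y (lowest, median and highest) and 11.31, 11.34 and 11.35 in SBH/y. After uninephrectomy they were 11.46, 11.52 and 11.63 in SBN/y and 11.32, 11.36 and 11.45 in SBH/y. The groups did not overlap in either state, with differences of -0.24 ± 0.04 (limma adjusted p = 1.3e-05) and -0.16 ± 0.04 (adjusted p = 0.00197).

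Uqcrc1, a core protein of the complex, ran from 11.37 to 11.46 in SBN/y and from 11.04 to 11.27 in SBH/y with both kidneys, a difference of -0.23 ± 0.04. After uninephrectomy it ran from 11.31 to 11.56 and from 11.11 to 11.29, a difference of -0.18 ± 0.04, again without overlap. Its partner core protein Uqcrc2 was lower by less, -0.11 ± 0.03 with both kidneys, where the groups overlapped, and -0.13 ± 0.03 after uninephrectomy, where they did not. The small subunits Uqcr11 (-0.19 and -0.13), Uqcrh (-0.14 and -0.19) and Uqcr10 (-0.12 and -0.11) were lower in both states.

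In complex I, the entry point for NADH, 20 of 33 members (60.6%) were lower with both kidneys and 24 (72.7%) after uninephrectomy, 18 of them in both states. The median differences were -0.13 and -0.14. Of the 6 core subunits measured, which carry the flavin and iron-sulfur clusters or the coenzyme Q site, 5 were lower in each state, with a median of -0.17 in both. Of the 27 accessory subunits, which surround that core, 15 were lower with both kidneys and 19 after uninephrectomy, and Ndufb8 was higher in both.

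Among the core subunits, Ndufv2, an iron-sulfur protein of the NADH-oxidizing end, had values of 11.40, 11.47 and 11.53 in SBN/y and 11.19, 11.27 and 11.33 in SBH/y with both kidneys. After uninephrectomy they were 11.43, 11.52 and 11.56 in SBN/y and 11.09, 11.28 and 11.38 in SBH/y. Neither pair of groups overlapped, and the differences were -0.19 ± 0.04 (limma adjusted p = 0.00079) and -0.23 ± 0.04 (adjusted p = 5.08e-05). Ndufs3, a subunit near the coenzyme Q site, was lower by -0.20 ± 0.04 and -0.26 ± 0.04. It ran from 10.47 to 10.58 in SBN/y and from 10.23 to 10.43 in SBH/y with both kidneys, without overlap, and after uninephrectomy from 10.48 to 10.69 and from 10.16 to 10.48, where the edges of the ranges overlapped. The iron-sulfur subunits Ndufs7 (-0.14 and -0.18) and Ndufs8 (-0.17 and -0.16) were lower in both states. Ndufv1, which binds NADH and the flavin, passed with both kidneys (-0.18 ± 0.06, then -0.16 ± 0.06 with an adjusted p of 0.0528), and Ndufs1, the largest iron-sulfur subunit, after uninephrectomy (-0.10 ± 0.04, then -0.15 ± 0.04).

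The accessory subunit Ndufa5 had the largest difference of complex I in both states. Its lowest, median and highest values were 8.98, 9.05 and 9.17 in SBN/y and 8.73, 8.80 and 8.92 in SBH/y with both kidneys. After uninephrectomy they were 9.06, 9.09 and 9.23 in SBN/y and 8.63, 8.79 and 8.96 in SBH/y. No SBH/y array reached the SBN/y range of its own state, and the differences were -0.25 ± 0.04 (limma adjusted p = 7.83e-05, or -16.1%) and -0.32 ± 0.04 (adjusted p = 1.26e-06, or -20.2%). Ndufa3 (-0.22 and -0.20), Ndufa2 (-0.20 and -0.23), Ndufb7 (-0.20 and -0.21) and Ndufa12 (-0.17 and -0.17) were lower in both states. The accessory subunits called in neither state were Ndufa1, Ndufa6, Ndufb11, Ndufb2, Ndufb6 and Ndufv3. For Ndufa1 the difference was 0.00 with both kidneys, with a 95% interval from -0.07 to 0.07.

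Ndufb8, an accessory subunit of the membrane arm, went the other way. It ran from 8.54 to 8.75 (median 8.68) in SBN/y and from 8.79 to 8.89 (median 8.85) in SBH/y with both kidneys. After uninephrectomy it ran from 8.52 to 8.70 (median 8.56) and from 8.74 to 8.94 (median 8.86). The groups did not overlap in either state, and SBH/y was higher by 0.18 ± 0.04 (limma adjusted p = 0.00172, or 13%) and by 0.25 ± 0.04 (adjusted p = 1.32e-05, or 19.1%).

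**Figure D2:**
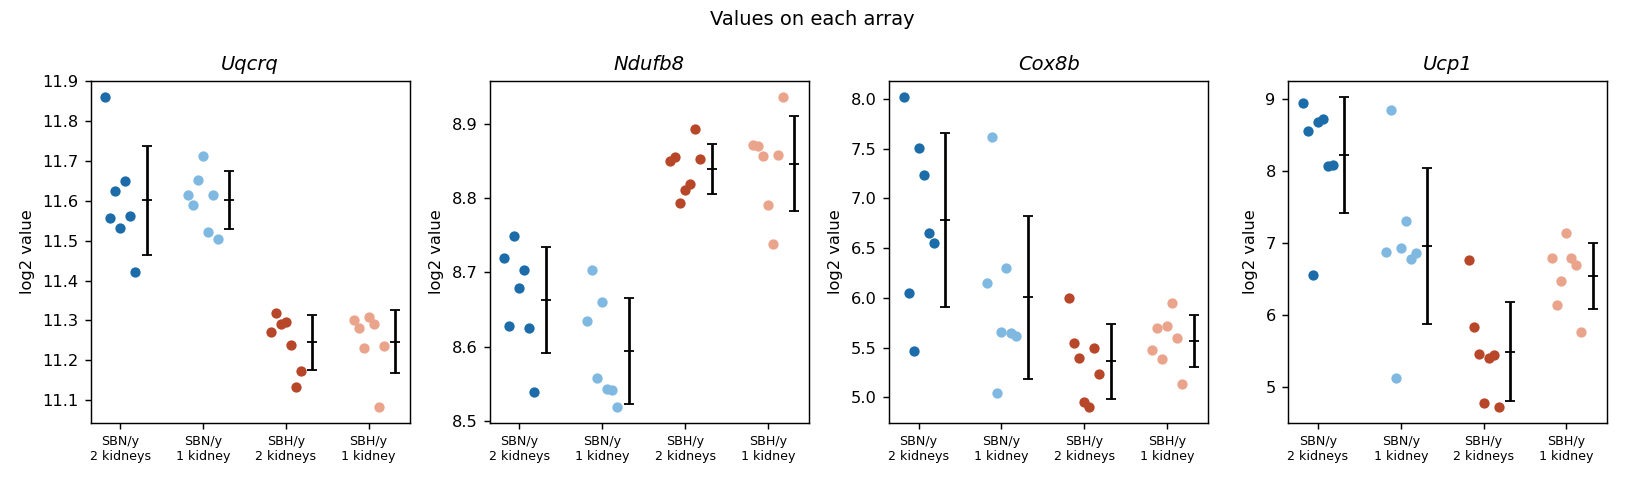
Log2 value on each of the 28 arrays (points) for Uqcrq, Ndufb8, Cox8b and the brown fat marker Ucp1, with the group mean and SD (bars), on axes that do not start at 0. Uqcrq is lower and Ndufb8 higher in SBH/y without overlap in either state, whereas Cox8b and Ucp1 are spread widely, above all in SBN/y.

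Complex II, the succinate dehydrogenase that also works in the tricarboxylic acid cycle, had differences below 0 for all 4 subunits in both states. The flavoprotein Sdha was not called with both kidneys (-0.08 ± 0.04, adjusted p = 0.129) and was lower after uninephrectomy (-0.15 ± 0.04, adjusted p = 0.0045, limma). With both kidneys it passed after quantile normalization (-0.11, adjusted p = 0.0312), as did Sdhc (-0.11, adjusted p = 0.0178). Sdhb, the iron-sulfur subunit, was lower by -0.12 ± 0.03 and -0.19 ± 0.03. Its values after uninephrectomy ran from 11.70 to 11.82 in SBN/y and from 11.52 to 11.68 in SBH/y, without overlap, whereas with both kidneys they met at 11.70. Of the membrane anchors, Sdhd was lower in both states (-0.13 ± 0.04 and -0.16 ± 0.04) and Sdhc in neither (-0.09 ± 0.04 and -0.04 ± 0.04). Sdhd ran from 11.32 to 11.54 in SBN/y and from 11.29 to 11.36 in SBH/y with both kidneys, and from 11.31 to 11.52 and from 11.22 to 11.35 after uninephrectomy. Sdhc ran from 11.42 to 11.56 and from 11.27 to 11.44 with both kidneys, and from 11.37 to 11.55 and from 11.31 to 11.52 after uninephrectomy. The strains overlapped for each anchor in both states.

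Complex IV, cytochrome c oxidase, showed the smallest median over all its members, -0.06 with both kidneys and -0.05 after uninephrectomy, and 4 and 5 of its 18 members (22.2% and 27.8%) were lower. Its 18 members include 6 isoforms known mainly from other tissues and 1 pseudogene, most of them dim here. Over the 11 general subunits alone the medians were -0.05 and -0.10, with 3 and 5 lower. Cox5b, a nuclear subunit of the matrix side, had values of 11.84, 11.92 and 11.94 in SBN/y and 11.64, 11.70 and 11.74 in SBH/y with both kidneys, and 11.86, 11.91 and 11.97 against 11.65, 11.69 and 11.77 after uninephrectomy. Neither pair overlapped, with differences of -0.20 ± 0.03 (limma adjusted p = 2.79e-05) and -0.21 ± 0.03 (adjusted p = 1.04e-05).

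Cox6b1 (-0.14 and -0.13) and Cox6a1 (-0.12 and -0.11) were lower in both states, and Cox6c (-0.13) and Cox7b (-0.13) after uninephrectomy. With both kidneys Cox6c differed by -0.10 ± 0.04 (limma adjusted p = 0.0541, and 0.0115 to 0.0379 under 5 alternative settings), and Cox7b by -0.05. Ndufa4, once counted with complex I, was not called, at -0.09 ± 0.04 (95% interval -0.17 to -0.01) and -0.10 ± 0.04 (-0.17 to -0.02). For Cox4i1, the ubiquitous isoform of subunit IV, the difference was 0.00 ± 0.04 with both kidneys (95% interval -0.07 to 0.07) and 0.01 ± 0.04 after uninephrectomy. Cox7c (-0.02 and -0.03) and Cox8a (-0.04 and -0.02) were close to it. Cox7a2l, known for joining complexes III and IV, was higher in SBH/y with both kidneys by 0.11 ± 0.04 (limma adjusted p = 0.0372) and not called after uninephrectomy (0.06 ± 0.04). After quantile normalization, and with only the compared groups in the fit, 1 member rather than 2 was called higher with both kidneys, and Ndufb8 kept its call in both.

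In ATP synthase, 8 of 16 members (50%) were lower with both kidneys and 5 (31.2%) after uninephrectomy, and the median difference was -0.09 in both states. Of the 5 subunits of the F1 head, where ATP is made, 4 were lower with both kidneys and 1, Atp5f1c, after uninephrectomy. Atp5f1d, the delta subunit of the central stalk, ran from 11.04 to 11.10 in SBN/y and from 10.78 to 10.92 in SBH/y with both kidneys, without overlap and with a difference of -0.19 ± 0.04 (limma adjusted p = 0.000223). After uninephrectomy its difference was -0.09 ± 0.04 and did not pass (adjusted p = 0.0785), though it passed under 4 alternative settings (0.0329 to 0.0458). The epsilon subunit Atp5f1e was lower with both kidneys (-0.13 ± 0.04, limma adjusted p = 0.0345) and not called after uninephrectomy (-0.11 ± 0.04). The rotor subunit Atp5f1c was lower in both states (-0.09 and -0.12), the alpha subunit Atp5f1a with both kidneys (-0.10, then -0.06 and not called), and the catalytic beta subunit Atp5f1b in neither (-0.08 and -0.06).

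Atp5mc3, a gene for the c subunit of the proton-driven ring, was lower by -0.13 ± 0.03 in each state. Its values ran from 12.62 to 12.69 in SBN/y against 12.47 to 12.58 in SBH/y with both kidneys, and from 12.64 to 12.70 against 12.46 to 12.61 after uninephrectomy, without overlap. Of the peripheral stalk, Atp5pd was lower in both states (-0.11 and -0.14), Atp5pf after uninephrectomy (-0.03 and -0.15), and Atp5pb and Atp5po in neither. Atp5me, a subunit of the membrane part, ran from 10.64 to 10.73 in SBN/y and from 10.51 to 10.63 in SBH/y with both kidneys, without overlap (-0.13 ± 0.04, limma adjusted p = 0.0135), and differed by -0.08 ± 0.04 after uninephrectomy, not called. Atp5if1, the inhibitor that stops the enzyme from running backwards, was lower in both states as well, by -0.19 ± 0.05 (limma adjusted p = 0.00638) and -0.22 ± 0.05 (adjusted p = 0.00113). Its values after uninephrectomy, 10.22 to 10.40 in SBN/y and 9.97 to 10.15 in SBH/y, did not overlap, and with both kidneys they did.

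To compare the complexes array by array, each member was centred on its mean over the 28 arrays and averaged over its complex. For complex III the 7 SBN/y arrays with both kidneys had a lowest, median and highest level of 0.08, 0.10 and 0.12, and the SBH/y arrays -0.15, -0.07 and -0.06. After uninephrectomy the levels were 0.03, 0.08 and 0.11 in SBN/y and -0.18, -0.08 and -0.03 in SBH/y. The strains did not overlap in either state for complex III and for ATP synthase, nor for the mean over all 79 members. For ATP synthase after uninephrectomy the gap was narrow, between 0.003 on the highest SBH/y array and 0.006 on the lowest SBN/y array. Complex I did not overlap with both kidneys and overlapped after uninephrectomy, where 6 of 7 SBH/y arrays lay below all SBN/y arrays. Complex II overlapped in both states. Complex IV did not overlap with both kidneys and did after uninephrectomy, and for its 11 general subunits alone the reverse held. With both kidneys the strain difference of its level was -0.13, and -0.06 over the general subunits. The level over all its members includes Cox8b, at -1.42.

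**Figure D3:**
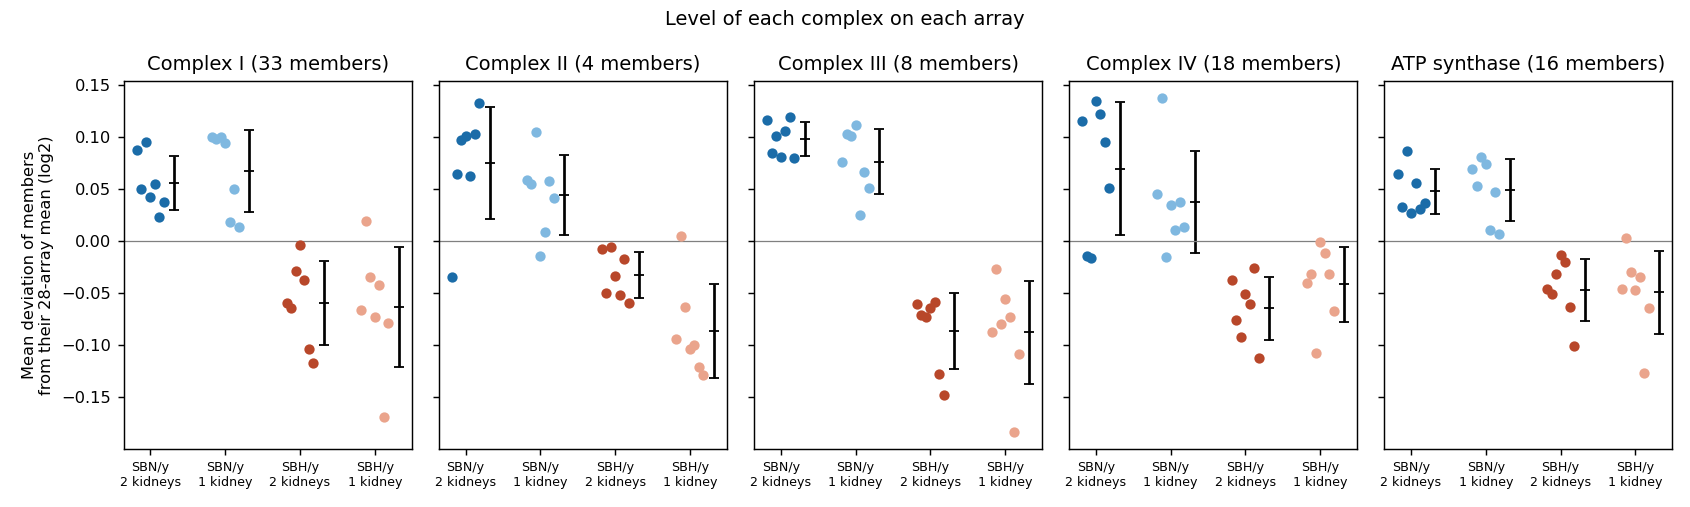
Level of each complex on each array (points): the mean, over its members, of the log2 value minus that member's mean over 28 arrays, with group mean and SD (bars). Complex III and ATP synthase separate the SBN/y arrays (blue) from the SBH/y arrays (red) of the same state without overlap, by a narrow gap for ATP synthase after uninephrectomy.

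Uninephrectomy gave few calls among these genes. In SBN/y, 0 of 79 members passed the test between 1 kidney and both (limma), beside 0.464% of all probe sets called in either direction. The median difference was 0.00. At an unadjusted p under 0.05 stood 4 members and 2717 of 31042 probe sets. The 95% interval of the effect lay within ±0.25 log2 for 76 of 79 members, the exceptions being Cox5a, Cox6b2 and Cox8b. Over all probe sets it did so for 24845 of 31042. The strain differences met the same bound for 58 members with both kidneys and 59 after uninephrectomy. The bound therefore cannot exclude effects as small as those strain differences. In SBH/y, 2 members were lower after uninephrectomy and 0 higher, with a median of 0.00, and 4.91% of all probe sets were called lower. An unadjusted p under 0.05 was reached by 5 members and 6622 of 31042 probe sets. For 77 of 79 the interval lay within ±0.25, as it did for 21371 of 31042 probe sets. The called members were Sdha, at -0.12 ± 0.04 (limma adjusted p = 0.0458), and Uqcrc2, at -0.11 ± 0.03 (adjusted p = 0.0341).

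In SBH/y, Sdha ran from 11.59 to 11.67 with both kidneys and from 11.43 to 11.59 after uninephrectomy. Uqcrc2 ran from 11.49 to 11.56 with both kidneys and from 11.35 to 11.46 after uninephrectomy, without overlap. A second, dimmer probe set of Uqcrc2 was also lower in SBH/y after uninephrectomy, by -0.21 ± 0.06 (limma adjusted p = 0.0271). Both calls of the main probe sets were lost after quantile normalization, after median centring and with only the compared groups in the fit. The count of 2 became 0 without SBH/y arrays 1, 3, 5 or 7 with both kidneys or 1, 4, 5 or 6 with 1 kidney, each left out in turn. It became 1 without SBH/y arrays 2, 4 or 6 with both kidneys or 7 with 1 kidney, and, because the spread is shared by all groups, without SBN/y arrays 3, 5 or 6 with both kidneys or 1, 2, 3, 6 or 7 with 1 kidney.

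The strain by uninephrectomy interaction asks whether the operation acted differently in the strains. It was called by limma for 0 of 79 members and for 1.41% of all probe sets. At an unadjusted p under 0.05 stood 2 members (Cox8b and Atp5pf) and 3665 of 31042 probe sets. The 95% interval of the interaction lay within ±0.25 for 75 members and for 12994 of 31042 probe sets. On simulated data, with changed probe sets drawn from all 31042, the fit called 8% of interactions of 0.2 log2. The median standard error of the interaction was 0.05 over the members and 0.09 over all probe sets. That share therefore does not give the rate for members, among which small interactions could still be missed. Atp5pf, a peripheral stalk subunit, ran from 11.37 to 11.44 with both kidneys and from 11.47 to 11.54 after uninephrectomy in SBN/y, without overlap, a difference of 0.09 ± 0.03 that did not pass (adjusted p = 0.243). In SBH/y it ran from 11.31 to 11.42 and from 11.30 to 11.39, and the interaction was -0.12 ± 0.04 (limma adjusted p = 0.214).

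**Figure D4:**
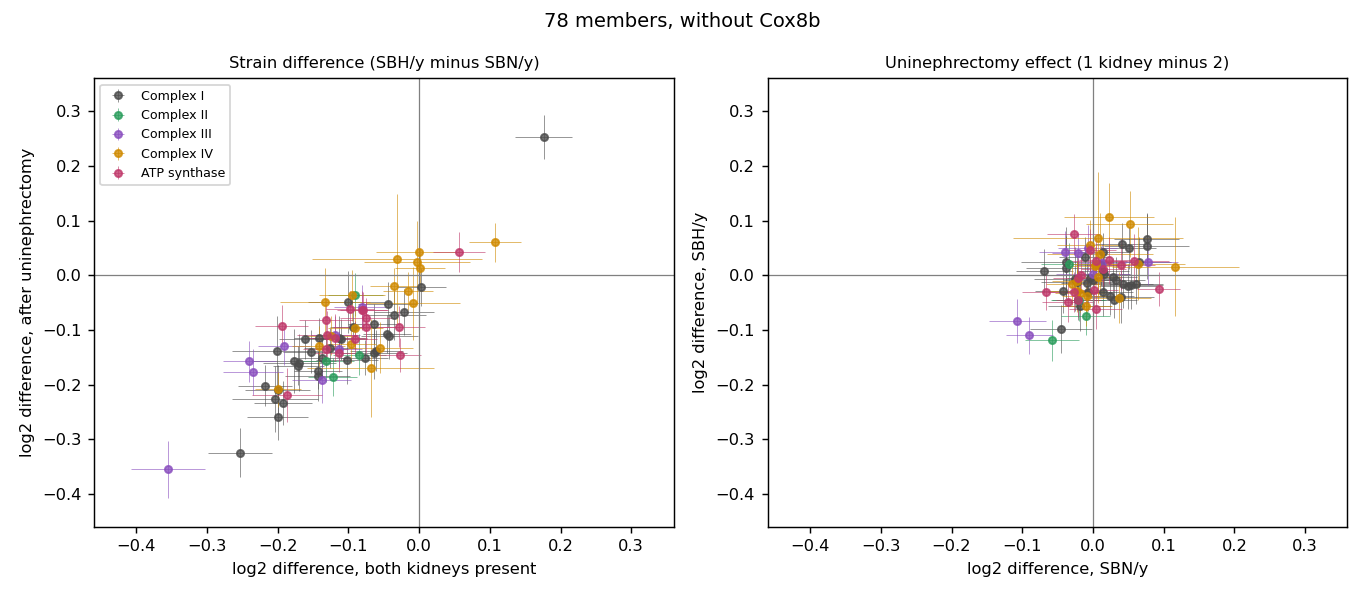
Each of 78 members (points, with bars of 1 standard error, Cox8b left out) by its log2 strain difference in both surgical states (left) and by its log2 effect of uninephrectomy in both strains (right), on equal axes. Most strain differences lie below 0 in both states, and most uninephrectomy effects lie around 0 in both strains.

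Cox8b, a complex IV isoform known from heart, skeletal muscle and brown fat, stood apart. With both kidneys its lowest, median and highest values were 5.47, 6.65 and 8.02 in SBN/y and 4.90, 5.40 and 6.0 in SBH/y, so 6 of 7 SBN/y arrays lay above every SBH/y array. After uninephrectomy they were 5.04, 5.66 and 7.61 in SBN/y and 5.14, 5.60 and 5.95 in SBH/y. The strain difference was -1.42 ± 0.31 with both kidneys (limma adjusted p = 0.00101) and -0.44 ± 0.31 after uninephrectomy, not called. Its interaction of 0.98 ± 0.44 did not pass (adjusted p = 0.348).

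Ucp1, the uncoupling protein that defines brown fat, was spread in a like way, from 6.55 to 8.94 in SBN/y and from 4.71 to 6.76 in SBH/y with both kidneys (-2.74 ± 0.38, adjusted p = 1.99e-06, limma). After uninephrectomy Ucp1 ran from 5.12 to 8.85 and from 5.76 to 7.14 (-0.42 ± 0.38, not called). Of 12 fat markers, Ucp1 and Fabp4 (-0.71 ± 0.23) were lower with both kidneys and none was higher. After uninephrectomy Cidec was higher (0.36 ± 0.11, limma adjusted p = 0.0204) and none lower. The interaction was called, above 0, for 1 of the 12 markers (8.33%), beside 185 of 31042 probe sets. The mean level of those markers ran from 5.31 to 6.12 in SBN/y and from 5.23 to 5.47 in SBH/y with both kidneys, and from 5.09 to 6.16 and from 5.12 to 5.49 after uninephrectomy. Of 10 markers of skeletal and heart muscle, Mb (-0.18) and Tnni2 (-0.26) were lower with both kidneys and none after uninephrectomy. With both kidneys the lower markers were 16.7% of the fat list and 20% of the muscle list, beside 8.31% of all probe sets. Of the other isoforms known mainly from other tissues, Cox7a1, of heart and muscle, ran from 4.74 to 5.20 in SBN/y and from 4.83 to 5.14 in SBH/y with both kidneys (-0.01 ± 0.07), and Cox6a2 from 4.13 to 4.6 and from 4.14 to 4.74 (0.00 ± 0.08). Cox4i2 ran from 4.5 to 4.95 and from 4.43 to 4.64 (-0.13 ± 0.06), Cox6b2 from 4.22 to 4.59 and from 4.10 to 4.62 (-0.07 ± 0.09), and Cox7b2 from 3.14 to 3.29 and from 3.02 to 3.27 (-0.10 ± 0.05). None of these 5 was called in either state, and at such low values a missing call does not show equal RNA. The part of fat or muscle RNA in the Cox8b values was not tested.

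For 8 members other probe sets named the same gene, and 0 members had probe sets called in opposite directions. Sdhd was lower by both of its probe sets in both states, by -0.13 and -0.16 with both kidneys. For Atp5if1, a very dim probe set was also lower (-0.18 and -0.21) and another was not called (-0.04 and 0.03). Ndufv3 was not called by its main probe set (-0.10 ± 0.06 and -0.05 ± 0.06), whereas a dimmer one was lower by -0.44 ± 0.08 and -0.38 ± 0.08 (limma adjusted p = 0.0001 and 0.0006). Whether base differences between the strains lie under the probes was not tested for any member.

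Other mitochondrial genes were counted by list. For comparison, 8.31% of all probe sets were lower and 9.64% higher with both kidneys, and 10.3% and 11.1% after uninephrectomy. Of the bright probe sets, 15.1% and 19.6% were lower. Of 12 genes of the tricarboxylic acid cycle, which feeds the chain, 4 (33.3%) were lower in each state and 0 higher, with medians of -0.07 and -0.09. Those were Mdh2 (-0.23 and -0.19), Cs, the citrate synthase often used as a measure of mitochondrial mass (-0.14 and -0.12), Idh3b (-0.12 and -0.13) and Idh2 (-0.11 and -0.24). Of 70 mitochondrial ribosomal proteins, 14 (20%) were lower and 2 (2.86%) higher with both kidneys, with a median of -0.06. After uninephrectomy 9 (12.9%) were lower and 4 (5.71%) higher, with a median of -0.03, near the shares over all probe sets for lower genes. Examples were Mrps14 (-0.41 and -0.38) and Mrpl45 (-0.39 and -0.36).

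Of 41 assembly factors, which build the complexes but do not stay in them, 5 were lower and 4 higher with both kidneys and 7 and 4 after uninephrectomy, with medians of -0.02 and -0.04. Those lower were 12.2% and 17.1% of the list, beside 8.31% and 10.3% of all probe sets, and those higher 9.76% in each state, beside 9.64% and 11.1%. Of the complex III factors, Uqcc1 was lower (-0.15 and -0.20) and Uqcc3 higher (0.20 and 0.19), and Sdhaf2 of complex II was higher (0.34 and 0.18). Of 14 electron carriers and coenzyme Q genes, 3 (21.4%) were lower and 2 (14.3%) higher with both kidneys and 5 (35.7%) and 2 (14.3%) after uninephrectomy, with Coq6 the most clearly lower (-0.26 and -0.26). Of 13 genes of the outer membrane and protein import, 3 were lower and 3 higher (23.1% each) with both kidneys, and 1 (7.69%) and 3 (23.1%) after uninephrectomy. The platform also names 2 probe sets by the symbols of mitochondrially encoded complex IV subunits, not matched in the RefSeq table. COX1 was lower by -0.09 ± 0.03 in each state (limma adjusted p = 0.0458 and 0.0445), and COX2 was not called (-0.01 and 0.00). The mean level of these 2 probe sets ran from 13.97 to 14.10 over all groups. Whether so bright a signal still follows the amount of RNA was not tested.

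Among 20 regulators of mitochondrial genes, 7 (35%) were lower and 4 (20%) higher with both kidneys, and 6 (30%) and 3 (15%) after uninephrectomy. Over all probe sets the shares were 8.31% and 9.64%, then 10.3% and 11.1%. Ppargc1a, the coactivator PGC-1alpha, had mean values of 9.61 ± 0.09 (SD, n = 7) in SBN/y and 9.44 ± 0.07 in SBH/y with both kidneys, and 9.62 ± 0.06 and 9.25 ± 0.07 after uninephrectomy. Its strain differences were -0.18 ± 0.04 and -0.38 ± 0.04 (limma adjusted p = 0.00459 and 8.22e-08), and in SBH/y it was lower after uninephrectomy by -0.19 ± 0.04 (adjusted p = 0.00514), with no call of the interaction (adjusted p = 0.116). Its relative Ppargc1b (-0.34 and -0.28) and the nuclear receptors they act on, Esrra (-0.13 and -0.15), Esrrb (-0.16 and -0.33) and Esrrg (-0.30 and -0.36), were lower in both states. Nrf1, a transcription factor of respiratory chain genes, was higher with both kidneys (0.26 ± 0.09, limma adjusted p = 0.0346; then 0.21, not called), and Gabpb1, a subunit of the factor NRF-2, after uninephrectomy (0.12 ± 0.04, adjusted p = 0.0355; 0.08 with both kidneys, not called). Twnk, the helicase of mitochondrial DNA, was lower by -0.64 ± 0.06 and -0.52 ± 0.06, whereas Polg, the polymerase (0.17 and 0.26), and Lrpprc, which stabilizes mitochondrial messenger RNA (0.19 and 0.14), were higher. In SBH/y, Idh2 was also lower after uninephrectomy (-0.13 ± 0.04, limma adjusted p = 0.0339). There 2 of the 13 outer membrane and import genes (15.4%), Tomm40 (0.16) and Phb2 (0.15), were higher, beside 1033 of 31042 probe sets.

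In whole kidney RNA, fewer cells of a type and less RNA per cell cannot be told apart, and markers of several cell types moved with strain. For comparison with every marker count, 8.31% of all probe sets were lower and 9.64% higher with both kidneys. After uninephrectomy the shares were 10.3% and 11.1%. Proximal tubule markers, whose mean level ran from 11.39 to 11.73 over all groups and so bore out the labelled tissue, were not lower as a list: 2 of 13 were higher and 1 lower with both kidneys (median 0.05), and 5 and 1 after uninephrectomy (median 0.11). Thick ascending limb markers were lower for 4 of 7 with both kidneys (median -0.15) and 6 of 7 after uninephrectomy (median -0.24), and 0 were higher. Their mean level ran from 10.43 to 10.58 in SBN/y and from 10.18 to 10.28 in SBH/y with both kidneys, and from 10.52 to 10.72 and from 10.11 to 10.24 after uninephrectomy. For the distal convoluted tubule and connecting tubule, markers were lower for 3 of 6 in each state (medians -0.22 and -0.41), with levels from 8.08 to 8.41 in SBN/y and from 7.80 to 8.05 in SBH/y with both kidneys, and from 8.42 to 8.56 and from 7.99 to 8.24 after uninephrectomy.

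Intercalated cell markers were lower for 3 of 5 with both kidneys and 5 of 5 after uninephrectomy, with levels from 8.39 to 8.62 against 8.20 to 8.36, and then from 8.41 to 8.73 against 8.0 to 8.33. Macrophage markers were mostly higher: 5 of 9 were higher and 1 lower with both kidneys (median 0.41) and 7 and 1 after uninephrectomy (median 0.62), with levels from 6.72 to 6.99 in SBN/y and from 7.0 to 7.39 in SBH/y, and then from 6.77 to 6.97 and from 7.08 to 7.55. Endothelial markers were lower for 2 and 5 of 6, collecting duct markers for 3 of 7 in each state with 1 higher, and podocyte markers for 0 and 5 of 5 with 1 and 0 higher. T cell markers were lower for 3 of 5 and higher for 1 with both kidneys, and 0 and 1 after uninephrectomy, and smooth muscle markers were lower for 1 of 5 in each state, with 0 and 1 higher. The part of these cell types in the strain differences of the respiratory chain was not tested.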

How the data were processed

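Kidney RNA of 28 samples was measured on 1-colour Affymetrix rat arrays. The authors deposited log2 values for 31099 probe sets, made with GCOS and RMA per the submitters' processing notes, and their versions are not given in the sources used here. That method subtracts background, quantile-normalizes and summarises probes, so differences in total RNA are not seen. After removing 57 control probe sets, 31042 were fitted with limma 3.58.1 (R 4.3.3; lmFit and eBayes, 1 mean per group over 28 arrays) and adjusted by Benjamini-Hochberg at 0.05. Names come from the platform annotation: 20826 probe sets had 1 symbol, 436 several and 9780 none, and 7 probe sets with several symbols, 1 of them a member's, were left out. The value after ± is limma's standard error, or an SD where marked. The fit was tested on simulated data with 200 changed probe sets. Changes of 0.2 log2 were called for 22% and 17% in the strain comparisons with both kidneys and after uninephrectomy. For uninephrectomy in SBN/y, in SBH/y and the interaction the shares were 24%, 26% and 8%. Changes of 0.5 log2 were called for 78% to 97%. The changed probe sets were drawn from all 31042, where the median standard error of a group difference was 0.07, against 0.04 over members. The real strain comparisons also called far more probe sets than the 200 changed, which eases the adjusted threshold. These shares therefore do not give the rate for members. A missing call still does not show that a small change is absent.

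The members and lists were chosen with earlier results of these data known. Any member could be named. The rule asked for values by group for up to 4 called members of smallest p per complex and comparison, all of complex II, tissue-restricted isoforms and the inhibitor. The text gives them for part of these and differences for the others. From other lists, examples were chosen among called genes. Alternatives were quantile normalization, median centring, a filter on the dimmest 40%, trended and robust variance, array weights, fits of the compared groups only, a replicate block, all probe sets of a gene, and each array left out. The summary over the general complex IV subunits, taken from the same fit, was chosen after seeing the data.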

Additional observations from a re-analysis of the deposited data

Results flagged for a closer look

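Of 148 groups of 7 arrays tested, over 32 members and the levels of 5 complexes, 10 had 1 array set apart from the other 6 by Dixon's test, and chance sets apart about 1 in 20. In SBN/y with both kidneys, array 1 had the lowest level of complex II, -0.035 against 0.063 for the next. There Ndufs3 was lowest on array 4 (10.47), Cox6a1 highest on array 6 (11.86) and the dim Cox4i2 highest on array 4 (4.95). In SBN/y after uninephrectomy, the level of complex IV was highest on array 2, at 0.137 against 0.045 for the next, the array on which Cox8b was at 7.61, and Atp5pd was lowest on array 5 (11.998). In SBH/y with both kidneys, Sdhc was lowest on array 7 (11.27) and Uqcrc2 highest on array 1 (11.56). In SBH/y after uninephrectomy, array 6 had the lowest Uqcrq (11.08) and the highest Cox6a2 (4.59).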

How the results depend on the processing

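Of 48 calls of named members, 43 stayed in each alternative fit over 7 arrays a group, and 0 turned direction; named members were not refitted with arrays left out, and the interaction was not refitted on compared groups only, since it needs all 4. The 5 that were lost are those of Sdha and Uqcrc2 in SBH/y after uninephrectomy, and, with only the compared groups in the fit, of Atp5pd, Cox6a1 and Uqcrc2 between strains with both kidneys. Members not called as reported also gained calls, 5 of them under 12 combinations of member and setting: Sdha, Sdhc and Cox6c with both kidneys and Atp5f1d and Atp5me (adjusted p = 0.0479 after quantile normalization) after uninephrectomy, all lower. The number of members lower in SBH/y with both kidneys ran from 30 (compared groups only) to 47 (trended and robust variance), and from 31 to 43 with each array left out. After uninephrectomy it ran from 38 (median centring) to 53 (quantile normalization), and from 37 to 46 with each array left out. The 2 members higher with both kidneys became 1 after quantile normalization and with only the compared groups in the fit, and 1 to 2 with each array left out (1 without SBN/y arrays 2, 3, 4 or 7 or SBH/y arrays 2, 5 or 6 with both kidneys); the cause was not tested. The 2 members lower in SBH/y after uninephrectomy became 0 after quantile normalization, after median centring and with only the compared groups in the fit, and 0 to 2 with each array left out; the cause was not tested. The median of complex IV after uninephrectomy was -0.10 both without the dimmest 40% of probe sets and over its general subunits alone, since both settings drop dim isoforms such as Cox4i2 and Cox7a1. With the replicate number as a block, 43 and 50 members were lower in SBH/y and 2 after uninephrectomy in SBH/y. The numbers share no stated source, and the main fit takes no account of them. Of 7 same-numbered pairs, 3 to 5 correlated above 0.1, up to 0.59, whereas pairs of other numbers averaged -0.03 to -0.02. For 10 of 28 arrays the closest array of another group had their own number. The members show this too: the complex I core level of arrays 6 and 7 lay below the group median in every group. The number of arrays limits the precision, and 6 members are too dim for a missing call to show equal RNA.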

Other observations

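Coq8a, an atypical kinase of coenzyme Q synthesis, was the gene of the mitochondrial lists with a called interaction (-0.95 ± 0.17, limma adjusted p = 0.0044). Its mean value was 8.15 ± 0.19 (SD, n = 7) in SBN/y and 8.47 ± 0.18 in SBH/y with both kidneys, and 8.23 ± 0.24 and 7.61 ± 0.36 after uninephrectomy. In SBH/y Coq8a was lower after uninephrectomy by -0.87 ± 0.12 (limma adjusted p = 2.47e-05). Etfdh, which feeds electrons to coenzyme Q, was lower there by -0.27 (limma adjusted p = 0.0037). Coq10b, a coenzyme Q-binding protein, was higher there by 0.40 (limma adjusted p = 0.0005). Of the import genes, Timm44, which tethers the import motor, was higher in SBH/y in both states (0.44 ± 0.09 and 0.54 ± 0.09), and Tomm40, the outer membrane channel, was lower with both kidneys (-0.24) and not called after uninephrectomy (-0.10). These genes were named after their values were seen.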
